A study of Mus musculus with 8 samples.

Results

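B lineage genes were followed in the cochlea of knockout and control mice, as a set that runs from the earliest committed precursor to the mature B cell. The set was chosen by name, with 34 genes, and 7 of them were set apart as precursor genes (Igll1, Vpreb1, Vpreb3, Rag1, Rag2, Dntt and Il7r). For 30 of the 34 genes the array carried a feature, which is a group of probes read as 1 value, that the platform annotation links to exactly 1 gene symbol. These 30 comprised 6 precursor genes and 24 others, out of 22180 genes tested. Rag1, Cd72 and Cd74 were linked only to features that name several genes, and they and Lyn were not analysed here. A gene with several features was represented by its brightest one, by the mean of all arrays.

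Expression was measured on 8 Affymetrix Mouse Gene 2.0 ST arrays at postnatal day 16. Each array held RNA from both whole encapsulated cochleae of 1 mouse. The 4 knockout arrays came from mice labelled miR-183/96 KO, with the microRNA genes Mir183 and Mir96 deleted, and the 4 control arrays from mice labelled control, which the series' design text calls wild type. The sources used here do not give strain, sex or how the allele was made. The deposited values are log2 expression values, so a difference of 1 is a doubling, and every difference below is knockout minus control. The mature microRNAs of the cluster are shown because 2 of them define the knockout. They were taken from RefSeq (GRCm38.p6, chromosome 6, minus strand), with the seed, bases 2 to 8, in capitals.
mmu-miR-183-5p: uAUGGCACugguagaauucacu
mmu-miR-96-5p: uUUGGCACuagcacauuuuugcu
mmu-miR-182-5p: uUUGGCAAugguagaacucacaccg

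B cells arise in the bone marrow. A precursor first rearranges its heavy chain gene with the recombinase proteins Rag1 and Rag2, while Dntt, a polymerase, adds bases at the joints and signals through the interleukin receptor Il7r keep the cell alive and dividing. The new heavy chain is then displayed with a surrogate light chain made of the Igll1 and Vpreb proteins. Cd79a and Cd79b carry the signal of this pre-B cell receptor and of the later B cell receptor, and the transcription factors Ebf1 and Pax5 set and hold B cell identity. The encapsulated cochlea includes its bony wall. Several members also act outside the B lineage: Bcl11a and Ebf1 are active in neurons or mesenchyme, Cd24a marks red cell precursors and many other cells, and Syk, Btk, Ikzf1 and Il7r serve further blood cells.

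The arrays were alike, with correlations between 0.947 and 0.976 over all features. Mir96 read 4.01, 4.26, 4.26 and 4.31 in the knockout arrays and 5.71, 5.26, 6.23 and 5.57 in the control arrays, so no array went against its label at this feature. Of 14 cochlear markers 13 were measured, at percentiles up to 99.7 of mean level over all tested features. Of these 13, 10 had a difference below 0, beside 47.6% of all features. The mean level of these markers was 6.563 to 6.845 in knockout and 6.928 to 7.099 in control arrays, without overlap. It differed by -0.27, and the mean level of the 30 B lineage genes also by -0.27. The median differences were unlike, at -0.17 over the 13 markers and -0.28 over the 30 genes. Their median percentiles of mean level were 67.2 and 91.0. Among the cochlear markers Snap25, a presynaptic fusion protein, was the one that passed the test, at -1.09 (limma adjusted p = 0.0389). The B lineage markers Cd79a, Cd79b, Pax5 and Igll1 lay at percentiles 84.2 to 99.1. A percentile depends on the probes as well as on the RNA, so it is used here only to say whether a feature was bright or dim. In whole cochleae fewer B lineage cells and less RNA per cell cannot be told apart.

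Most B lineage genes read lower in knockout cochlea, by small amounts, and no member passed the test. In limma, with p-values adjusted over all 23521 features, 0 of 30 members passed, beside 0.0128% of all features. The smallest adjusted p among the members was 0.291. Differences below 0 were found in 27 of 30 members, beside 47.6% of all features, and the median was -0.28 over the members and 0.01 over all features. At an unadjusted p under 0.05, 14 of 30 members lay lower, beside 7.25% of all features, and 0 lay higher, beside 7.04%. The highest knockout value was below the lowest control value in 3 members, Bach2, Cd79b and Igll1, beside 2.65% of all features. The opposite held in 1 member, Vpreb1, beside 3.3%. The count of 14 changed when single arrays were left out, in fits that also had fewer arrays to test with. It was 8 without knockout replicate 1 or 4. Leaving out control replicate 2 gave 9, leaving out control replicate 4 gave 7, and leaving out any one of the other arrays gave 10 to 17. The share of all features at that p is not given here for those fits.

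**Figure D1:**
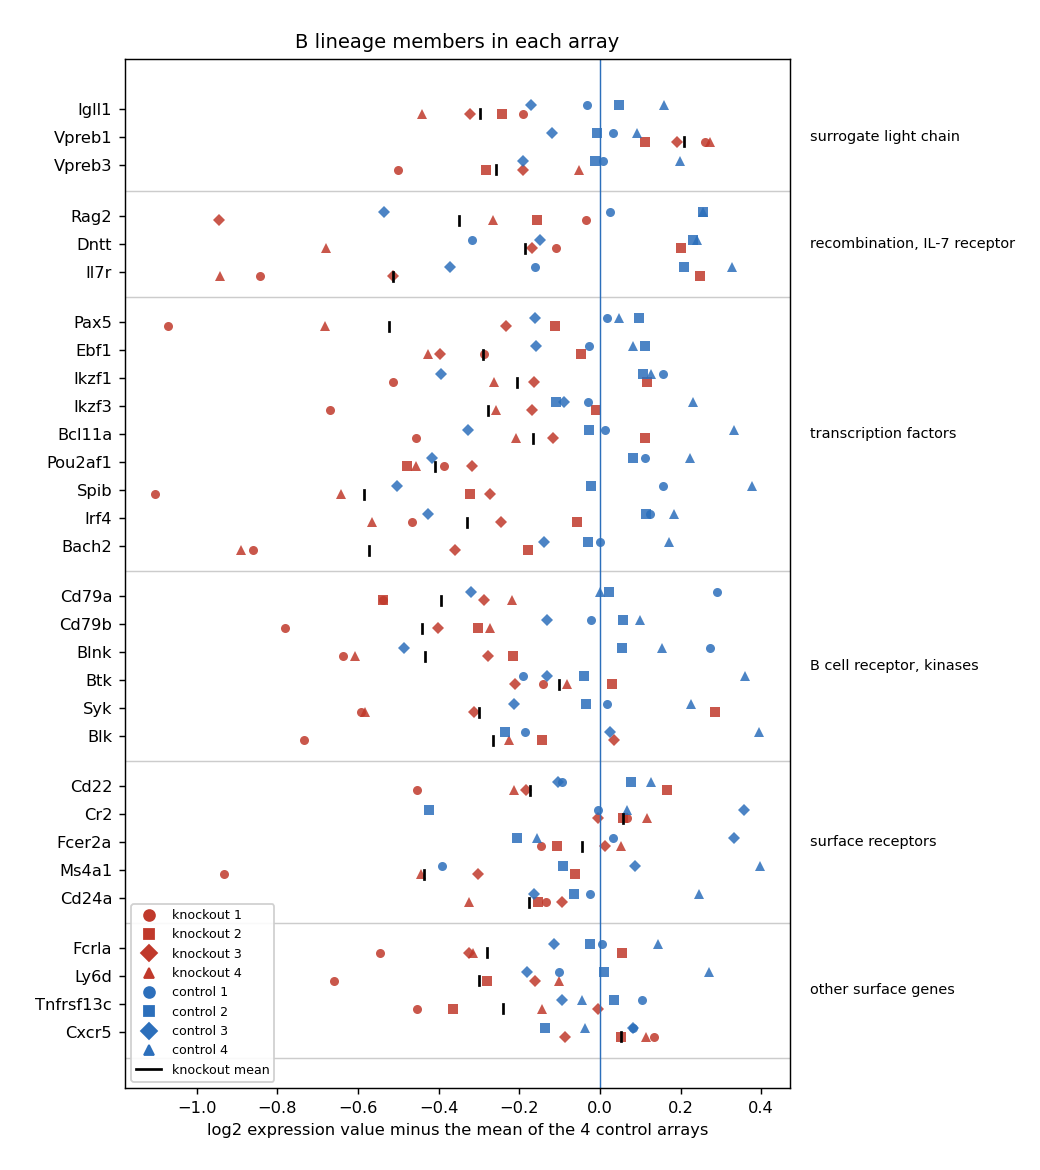
Log2 expression value of each of the 30 B lineage members in each array, minus the mean of the 4 control arrays (horizontal axis), with genes in rows grouped by role. Red points are knockout and blue points control arrays, the shape gives the replicate number and the black bar is the knockout mean. Knockout means lie left of the control mean at 0 in 27 rows, and the groups are fully apart in Igll1, Vpreb1, Bach2 and Cd79b.

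The surrogate light chain genes differed in sign. Igll1, its constant-like part, read 7.20, 7.15, 7.07 and 6.95 in the knockout arrays and 7.36, 7.44, 7.22 and 7.55 in the control arrays. The difference was -0.30 (SE 0.11; limma adjusted p = 0.305), and the groups did not overlap. Vpreb1, its variable-like part, read 5.08, 4.93, 5.01 and 5.09 in the knockout arrays and 4.85, 4.81, 4.70 and 4.91 in the control arrays. Every knockout array was thus above every control array, with a difference of 0.21 (SE 0.11; limma adjusted p = 0.388). Vpreb1 was a dim feature, at percentile 33.1, and Igll1 a bright one, at percentile 93.0. Vpreb3, a related chain that associates with immunoglobulin in the precursor cell, read 7.88, 8.10, 8.19 and 8.33 in the knockout arrays and 8.39, 8.37, 8.19 and 8.58 in the control arrays. Its groups met at knockout replicate 3 and control replicate 3, and knockout replicate 4 lay above control replicate 3. The difference was -0.26 (SE 0.12; limma adjusted p = 0.357).

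Igll1 and Vpreb1 are direct neighbours on chromosome 16, with 0 genes between them in RefSeq, and their differences had opposite signs. The median differences of all features at their mean levels had these signs too. In the decile by mean level that held Vpreb1 the median was 0.08, and in that of Igll1 it was -0.21. The part of level in these signs was not tested. The 250 bases before each start are shown because these promoters are a textbook target of the early B cell factors. They are from RefSeq, build GRCm38.p6, and capitals mark GAGGAA or its reverse complement, the core bound by the PU.1 and SpiB proteins, where the window holds it.
Igll1, chr16:16863986-16864235, minus strand: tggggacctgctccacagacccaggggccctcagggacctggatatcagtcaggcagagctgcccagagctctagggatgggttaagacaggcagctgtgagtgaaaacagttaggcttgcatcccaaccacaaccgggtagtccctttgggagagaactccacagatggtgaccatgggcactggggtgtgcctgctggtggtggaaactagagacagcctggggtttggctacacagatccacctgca
Vpreb1, chr16:16869256-16869505, minus strand: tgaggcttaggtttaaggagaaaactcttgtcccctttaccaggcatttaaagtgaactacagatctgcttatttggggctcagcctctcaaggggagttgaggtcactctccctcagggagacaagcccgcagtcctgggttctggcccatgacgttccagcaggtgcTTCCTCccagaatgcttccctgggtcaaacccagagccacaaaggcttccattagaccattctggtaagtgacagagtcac
The Vpreb1 window held the core at 81 to 76 bases before the start. In Igll1 the core lay only past the start, outside the printed bases.

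In the recombination genes and Il7r the range within a group was wider than the difference between groups. Il7r read 6.98, 8.07, 7.31 and 6.88 in the knockout arrays and 7.66, 8.03, 7.45 and 8.15 in the control arrays. Knockout replicate 2 reached the upper control values, while knockout replicates 1 and 4 lay well below all controls. The difference was -0.51 (SE 0.23; limma adjusted p = 0.336). Rag2 read 6.05, 5.93, 5.14 and 5.82 in the knockout arrays and 6.11, 6.34, 5.55 and 6.34 in the control arrays. The lowest value of each group came from replicate 3, and the ranges overlapped, with a difference of -0.35 (SE 0.21; limma adjusted p = 0.433). Dntt overlapped widely, at 6.32 to 7.20 in knockout and 6.68 to 7.23 in control cochlea, with a difference of -0.19 (SE 0.18; limma adjusted p = 0.616).

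The transcription factors held the lowest differences of the set. All 9 had differences below 0, with a median of -0.33, and 6 of 9 had an unadjusted p under 0.05, beside 7.25% of all features lower at that p and 22.5% in the highest 2 of 10 deciles by mean level, where all 9 lay. After cyclic loess, which reduces differences between arrays that depend on level, the count was 4 of 9. Beside it stand 5.73% of all features and 339 of the 4705 features in the highest 2 deciles. Level was not fully removed: the median of all features still went from 0.02 in the lowest decile to -0.07 in the highest. Spib, an Ets family factor of B cells and plasmacytoid dendritic cells, read 6.42, 7.20, 7.25 and 6.88 in the knockout arrays and 7.68, 7.50, 7.02 and 7.90 in the control arrays. Knockout replicate 1 was far below all others, and control replicate 3 lay inside the knockout range. The difference was -0.59 (SE 0.20; limma adjusted p = 0.301). Bach2, a repressor that holds back plasma cell differentiation, read 6.51, 7.19, 7.01 and 6.48 in the knockout arrays and 7.37, 7.34, 7.23 and 7.54 in the control arrays. The groups were apart, though knockout replicate 2 and control replicate 3 nearly met. Its difference was -0.57 (SE 0.16; limma adjusted p = 0.291).

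Pax5, which commits precursors to the B lineage, read 5.78, 6.74, 6.62 and 6.17 in the knockout arrays and 6.87, 6.95, 6.69 and 6.90 in the control arrays. Control cochleae were close to each other (6.85 ± 0.12, SD, n = 4), and knockout cochleae were spread (6.33 ± 0.44, SD, n = 4), with knockout replicate 2 just above the lowest control. The difference was -0.52 (SE 0.18; limma adjusted p = 0.301). Pou2af1, a coactivator that binds octamer factors, read 7.43, 7.34, 7.50 and 7.36 in the knockout arrays and 7.93, 7.90, 7.40 and 8.04 in the control arrays. Here control replicate 3 was the one control inside the knockout range, and the difference was -0.41 (SE 0.13; limma adjusted p = 0.301). Ebf1, which acts before Pax5, ranged from 7.63 to 8.01 in knockout and from 7.90 to 8.17 in control cochlea (difference -0.29, SE 0.11; limma adjusted p = 0.308).

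The remaining factors overlapped between groups. Irf4, needed for light chain rearrangement and plasma cells, differed by -0.33, Ikzf3 (Aiolos) by -0.28, Ikzf1 (Ikaros) by -0.20 and Bcl11a by -0.17, with limma adjusted p-values of 0.350 to 0.597. A second feature of Bcl11a, dim at percentile 22.2, read 0.19, so the sign for this gene depended on the feature.

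The receptor chains were bright features, at percentiles 97.8 for Cd79b and 99.1 for Cd79a. Cd79b read 7.69, 8.17, 8.07 and 8.20 in the knockout arrays and 8.45, 8.53, 8.34 and 8.57 in the control arrays. The groups did not overlap, and knockout replicate 1 was the lowest by a wide step. The group means were 8.03 ± 0.24 in knockout and 8.47 ± 0.10 in control cochlea (SD, n = 4), a difference of -0.44 (SE 0.12; limma adjusted p = 0.294). Cd79a read 8.99, 8.99, 9.24 and 9.31 in the knockout arrays and 9.82, 9.55, 9.21 and 9.53 in the control arrays. Control replicate 3 fell inside the knockout range, and the other 3 controls stood above it. The difference was -0.39 (SE 0.13; limma adjusted p = 0.301).

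Blnk, the adaptor that links the receptor to its enzymes, read 6.99, 7.41, 7.35 and 7.02 in the knockout arrays and 7.90, 7.68, 7.14 and 7.78 in the control arrays. Again control replicate 3 lay within the knockout range, and the difference was -0.43 (SE 0.16; limma adjusted p = 0.305). The kinases differed less. Syk was at -0.30, Blk, a Src family kinase, at -0.27 and Btk at -0.10, with limma adjusted p-values of 0.428 to 0.711, and the groups overlapped in each. The highest Syk value of all arrays, 8.09, came from knockout replicate 2.

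Promoters of the receptor chain Cd79a, the adaptor Blnk and the precursor gene Vpreb3 are printed as examples that hold an octamer or PU.1 motif. Both motifs are known B cell promoter elements, and their part in the differences was not tested. The 250 bases before each start are from RefSeq, build GRCm38.p6. Capitals mark the octamer ATGCAAAT in Blnk and Vpreb3 and GAGGAA in Cd79a, all 3 found as the reverse complement.
Cd79a, chr7:24897247-24897496, plus strand: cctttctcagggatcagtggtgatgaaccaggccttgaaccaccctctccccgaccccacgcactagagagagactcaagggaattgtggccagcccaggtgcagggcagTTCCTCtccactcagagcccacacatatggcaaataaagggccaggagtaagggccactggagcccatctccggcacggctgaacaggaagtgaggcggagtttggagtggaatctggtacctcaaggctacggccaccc
Blnk, chr19:40994222-40994471, minus strand: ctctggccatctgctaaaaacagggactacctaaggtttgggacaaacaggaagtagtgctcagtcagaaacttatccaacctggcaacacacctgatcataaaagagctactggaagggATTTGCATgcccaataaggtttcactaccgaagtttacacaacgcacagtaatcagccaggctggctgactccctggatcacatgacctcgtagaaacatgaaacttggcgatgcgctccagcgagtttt
Vpreb3, chr10:75948050-75948299, plus strand: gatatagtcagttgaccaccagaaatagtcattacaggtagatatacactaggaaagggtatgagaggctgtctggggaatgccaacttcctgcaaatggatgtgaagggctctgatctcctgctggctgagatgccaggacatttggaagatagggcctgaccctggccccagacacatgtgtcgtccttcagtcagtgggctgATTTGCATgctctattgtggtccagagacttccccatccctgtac
The Vpreb3 octamer lay 45 to 38 bases and the Blnk octamer 130 to 123 bases before the start, and the Cd79a match 140 to 135 bases before it. Windows from 250 bases before to 50 after the start were searched on both strands for 28 promoters of 23 measured members. The octamer was in 2 of 28 (7.14%), beside 1.74% of the 32851 promoters of the table. GAGGAA was in 10 of 28 (35.7%), beside 28.3%, and the EBF palindrome, bound by Ebf1, in 1 of 28 (3.57%, Cd22), beside 0.904%. Only exact matches to each motif were counted, and sites that depart from it were not searched for. The EBF count therefore does not show that promoters other than that of Cd22, such as that of Cd79a, lack an Ebf1 site. In the printed windows no counted motif overlapped another.

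Surface receptors differed in size and, as deposited, in sign. Of the 5 measured, Cd22, Cr2, Fcer2a, Ms4a1 and Cd24a, 4 were below 0 (median -0.17), beside 47.6% of all features. After cyclic loess 5 of 5 were below 0, beside 57.3%. Ms4a1, which encodes CD20, read 5.86, 6.73, 6.49 and 6.35 in the knockout arrays and 6.40, 6.70, 6.88 and 7.19 in the control arrays. The ranges overlapped over several arrays, and the difference was -0.44 (SE 0.19; limma adjusted p = 0.330). Cd22, an inhibitory lectin of the B cell surface, was at -0.17 (limma adjusted p = 0.532). Cr2, the complement receptor, was at 0.06 and Fcer2a, the low-affinity IgE receptor, at -0.05, with limma adjusted p-values of 0.872 and 0.886. Both are dim features, at percentiles 16.5 and 35.3, and the highest value of each came from control replicate 3. Cxcr5, the receptor that guides B cells to follicles, was at 0.05 (limma adjusted p = 0.824).

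Fcrla, an intracellular protein of the Fc receptor family, was at -0.28, Ly6d, a marker of early B lineage commitment, at -0.30 and Tnfrsf13c, the BAFF receptor, at -0.24, with limma adjusted p-values of 0.343 to 0.366. Their groups overlapped. Cd24a, a glycosylated surface anchor that is high on precursor B cells, was a bright feature, at 10.73 ± 0.10 in knockout and 10.90 ± 0.17 in control cochlea (SD, n = 4). It differed by -0.18 (SE 0.12; limma adjusted p = 0.471), and its second feature by 0.03 (SE 0.11).

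Precursor genes and the other members had the same median difference to 2 decimals. The 6 precursor genes had a median difference of -0.28 and 5 of 6 below 0, and the 24 others a median of -0.28 and 22 of 24 below 0. The mean log2 level of the precursor genes minus that of the others was -0.03, -0.23, -0.43 and -0.34 in the knockout arrays and -0.40, -0.16, -0.41 and -0.27 in the control arrays. The level of this measure depends on the probes, so only its change between arrays is read. The groups overlapped, at -0.26 ± 0.17 in knockout and -0.31 ± 0.12 in control cochlea (SD, n = 4), and their difference of 0.05 was smaller than the spread within either group. Knockout replicate 1 stood apart in this measure, and without it the difference was -0.02. Without the dim features of mean under 5, Vpreb1 among them, it was also -0.02.

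**Figure D2:**
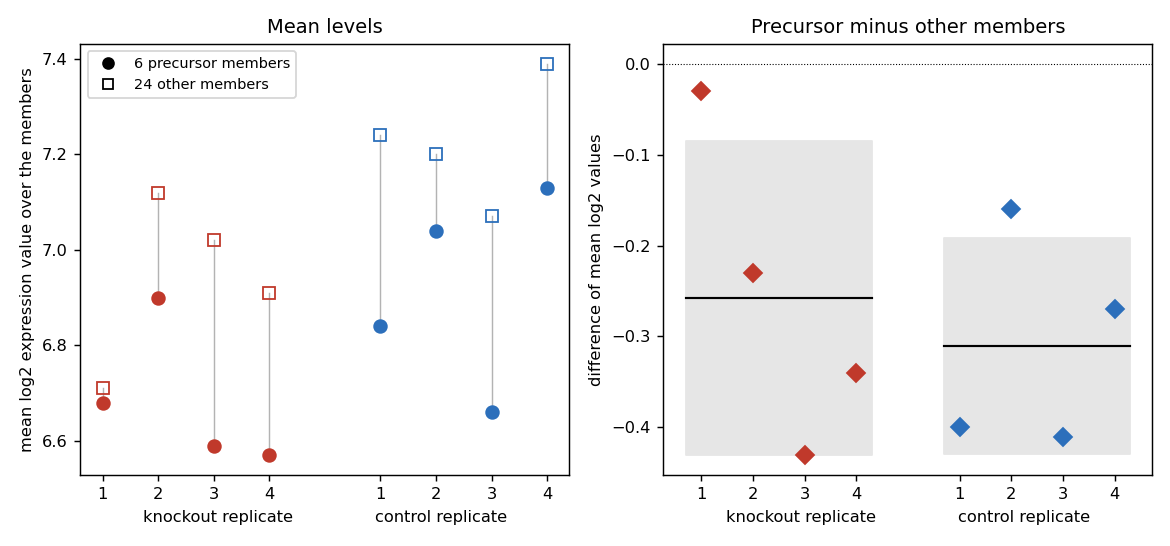
Left, mean log2 expression value over the 6 precursor members (filled circles) and the 24 other members (open squares) in each array. Right, precursor minus other members, with the group mean (line) and 1 SD (grey), red for knockout and blue for control. The difference runs from -0.43 to -0.03 in knockout and from -0.41 to -0.16 in control arrays.

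Single animals carried much of the spread. The mean level over all 30 members was 6.70, 7.08, 6.94 and 6.84 in the knockout arrays and 7.16, 7.17, 6.99 and 7.34 in the control arrays. Knockout replicate 2 therefore lay above control replicate 3, and the ranges overlapped. Knockout replicate 1 had the lowest value of all 8 arrays in 16 of 30 members, of which 15 were among the 24 non-precursor genes. Control replicate 4 had the highest value in 17 of 30 members, and control replicate 3 was the lowest control in 22 of 30. Within the knockout group, replicate 2 was the highest in 15 of 30. The median difference was -0.20 without knockout replicate 1, -0.23 without control replicate 4, and -0.34 when control replicate 3 was left out.

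The member differences went with the mean level of the features. Differences over all features moved from a median of 0.13 in the lowest of 10 deciles by mean level to -0.21 in the highest. Of the 30 members 24 lay in the highest 2 deciles, where 85.1% of all features were below 0. All 24 were below 0, with a median of -0.30 beside -0.19 for all features of those deciles. At an unadjusted p under 0.05, 14 of these 24 lay lower (58.3%), beside 22.5% of the features there. The other 6 members, Vpreb1, Rag2, Blk, Cr2, Fcer2a and Cxcr5, had a median difference of 0.0041, with 3 below 0. The SD of log2 values within an array, its signal range, was 1.37 to 1.44 in knockout and 1.41 to 1.56 in control arrays, and it was widest in control replicate 4. The part of signal range in these differences was not tested.

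After cyclic loess 27 of 30 members were below 0, beside 57.3% of all features, and the median was -0.15. Of the 24 members in the highest 2 deciles 23 were below 0, beside 67.5% of all features there. Their median was -0.15, beside -0.07 for those features. At an unadjusted p under 0.05, 6 of 30 lay lower, beside 5.73% of all features, and 0 of 30 passed after adjustment, with a smallest adjusted p of 0.390. All 6 were among the 24 members of the highest 2 deciles, where 339 of 4705 features lay lower at that p. The 6 were Bach2 (-0.44), Spib (-0.44), Pax5 (-0.43), Cd79b (-0.28), Cd79a (-0.28) and Pou2af1 (-0.25). Vpreb1 was then at 0.10, Igll1 at -0.15, Rag2 at -0.35 and Il7r at -0.36. Btk turned to 0.010 and Cr2 to -0.09.

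**Figure D3:**
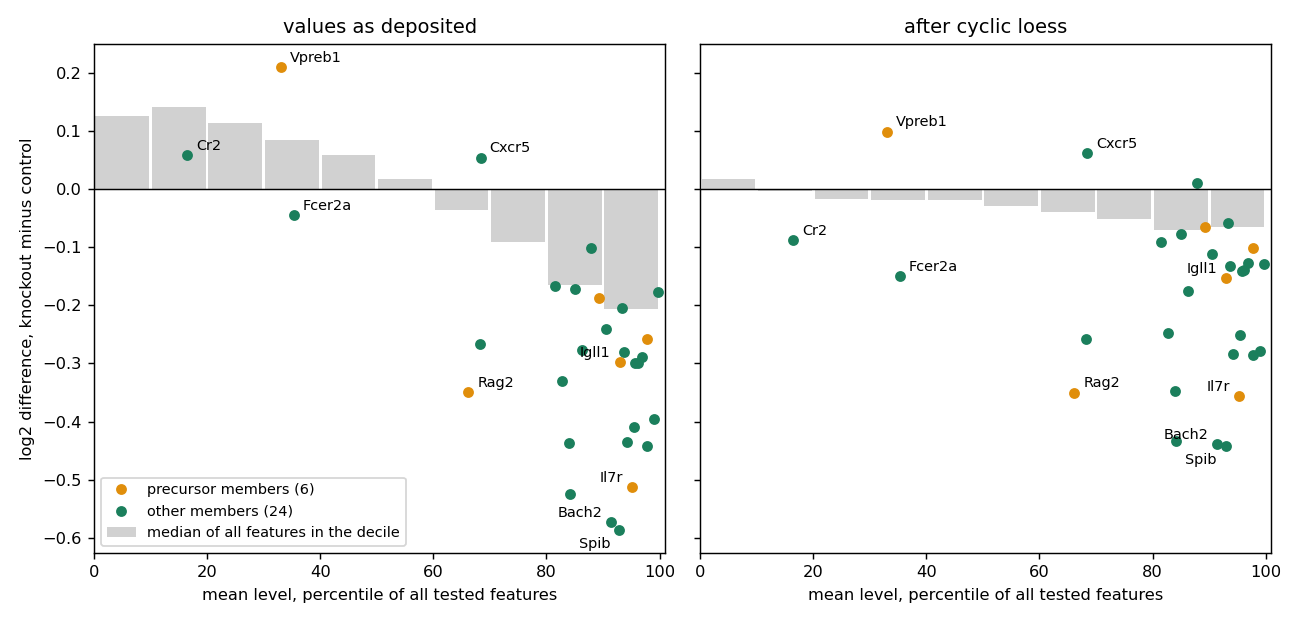
Log2 difference, knockout minus control, of each B lineage member against its mean level as a percentile of all tested features, for the values as deposited (left) and after cyclic loess (right). Grey bars are the median of all features in each decile, orange points precursor and green points other members. As deposited the bars go from 0.13 to -0.21 and the member median is -0.28, and after loess the member median is -0.15.

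Other genes of the B cell receptor pathway showed a similar spread. Of 20 listed genes 17 were measured, 0 passed the test and 14 had a difference below 0, with a median of -0.20. Prkcb, the kinase that passes the receptor signal to the NF-kB pathway, read 7.09, 7.51, 7.33 and 7.13 in the knockout arrays and 7.70, 7.82, 7.51 and 7.82 in the control arrays. Knockout replicate 2 and control replicate 3 nearly met, and the difference was -0.45 (SE 0.12; limma adjusted p = 0.291). Pik3ap1, an adaptor for a lipid kinase, was at -0.38 and the lipid phosphatase gene Inpp5d at -0.37. Of 12 further regulators of the lineage 0 passed and 10 were below 0 (median -0.23), with Sox4 at -0.37, Erg at -0.31 and Irf8 at -0.25. Beside these 2 lists, 47.6% of all features and 85.1% in the highest 2 deciles were below 0. The median percentiles of the lists were 80.4 and 86.1. MHC class II genes, which mature B cells share with macrophages and dendritic cells, gave 1 of 7 below 0 (median 0.04). That 1 was H2-Ab1 at -0.30, beside H2-DMa at 0.06 and H2-DMb1 at 0.08.

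Lists of other blood and marrow cells were read beside the members. In the erythroid list 8 of 8 measured genes were below 0 (median -0.21; Slc4a1 -0.41, Rhag -0.45, Rhd -0.27), and in the cell cycle list 12 of 13 (median -0.30; Cenpe -0.41, Mcm5 -0.32, Aurkb -0.31). In each of these 2 lists 0 genes passed. Both lists were bright, with median percentiles of 96.9 and 91.9. In the highest 2 deciles by mean level 85.1% of all features were below 0, with a median of -0.19. Summed over each list on the linear scale, levels ran from 5193 to 6207 in knockout and 5972 to 7863 in control arrays for the 30 members. The sums were 1495 to 2168 and 1720 to 2877 for the erythroid list, and 1877 to 2844 and 2364 to 3378 for the cell cycle list. Control replicate 4 was the highest array for the mean level of all 3 lists (7.34, 8.24 and 7.70). The part of these lists in the B lineage values was not tested.

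The remaining lists differed in direction. Beside their counts, 47.6% of all features were below 0, and 85.1% of those in the highest 2 deciles by mean level. The neutrophil lineage list had 6 of 12 below 0 (median 0.0074; S100a9 0.35, S100a8 0.27, Prtn3 -0.39) and the macrophage list 6 of 10 (median -0.09; Cx3cr1 0.34, Cd163 0.22, Csf1r -0.20). Both lists were bright, with median percentiles of 98.15 and 89.35. After cyclic loess 4 of 12 and 3 of 10 were below 0, with medians of 0.09 and 0.03. The share of all features below 0 was then 57.3%, and 67.5% in the highest 2 deciles. In the T and NK cell list 4 of 14 were below 0 (median 0.06; Themis 0.29, Cd8a -0.23, Cd3g 0.25), and most of its features were dim, with a median percentile of 35.6. The blood progenitor list had 4 of 6 below 0 (median -0.09; Cd34 -0.12, Kit -0.12, Flt3 -0.11), at a median percentile of 55.0. Skeletal muscle genes, which mark attached tissue, had 10 of 10 below 0 (median -0.91; Actn3 -0.90, Pvalb -0.96, Myh4 -1.67), at a median percentile of 87.95. Their mean level was 5.49 to 6.81 in knockout and 6.61 to 8.67 in control arrays. The lowest muscle level was that of knockout replicate 1, which was also the lowest array for the B lineage mean, while the highest was that of control replicate 2. None of these genes passed, and the part of muscle content in the B lineage values was not tested.

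**Figure D4:**
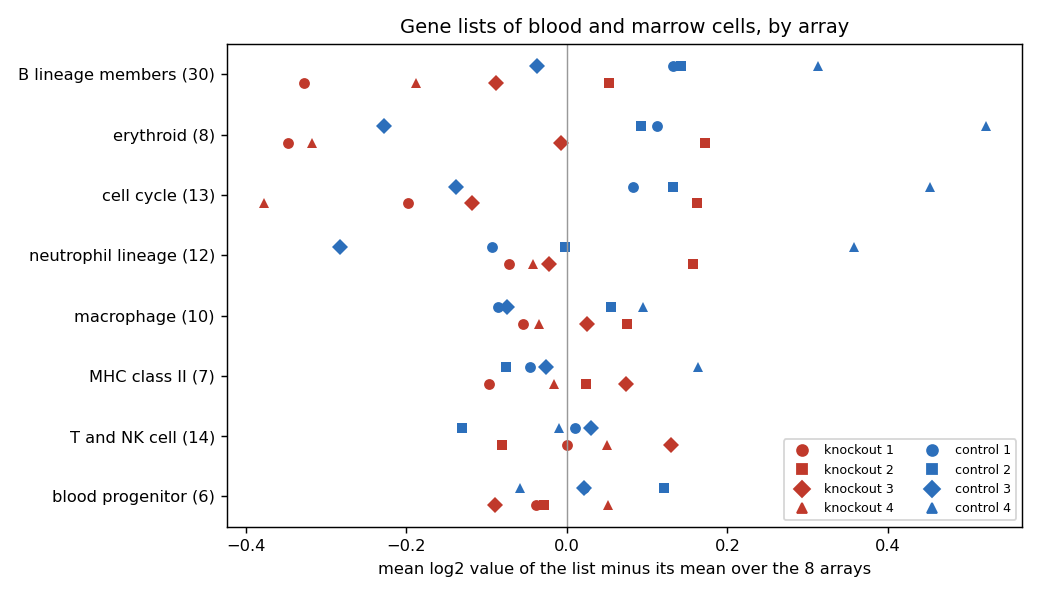
Mean log2 value of each gene list in each array, minus the mean of that list over the 8 arrays (horizontal axis), with the number of measured genes in brackets. Red points are knockout and blue points control arrays, and the shape gives the replicate number. Control replicate 4 is the highest array for B lineage members (7.34), the erythroid list (8.24) and the cell cycle list (7.70), and the groups overlap in each of the 8 lists plotted.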

How the data were processed

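The deposited values are log2 values per array feature. The authors ran RMA in Affymetrix Expression Console (gene-level analysis, per the labels), which corrects background, normalizes by quantiles and summarises the probes of a feature. The sources used here do not give the software version, the genome build or which arrays were normalized together. No detection call was used, so a dim feature may hold background only. The number of arrays limits the precision.

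Of 41345 features, 23521 had exactly 1 symbol, 1814 several and 16010 none. The genotypes were compared in limma 3.58.1 (R 4.3.3; lmFit, eBayes with an intensity trend), with Benjamini-Hochberg adjustment over the 23521 features and a threshold of 0.05. The fit was tested on simulated data. All 30 members matched RefSeq (GRCm38.p6) by gene identifier. The members and lists were chosen with earlier results of these data known, so medians, counts and levels over them carry no test. All members were named; in other lists, genes past the threshold or else the 3 with the smallest p, and Mir96. The alternatives comprised a replicate block, other variance models, a filter at a mean of 5, cyclic loess (limma's fast method over all 41345 features), median-centring, all features of the table, the mean of a gene's features, and leaving out each array.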

Additional observations from a re-analysis of the deposited data

Results flagged for a closer look

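In each group of 4 arrays the gap of the most extreme value to its nearest neighbour was compared with the range, for the 30 members and 4 mean levels. Of 68 groups 2 stood out, and chance alone gives about 1 in 20. In control cochlea Ikzf1 read 6.99 in replicate 3, below 7.49 to 7.54 in the other 3 control arrays. Irf4 read 6.26 in the same array, below 6.80 to 6.87 in the others. Both values lay within the range of the knockout arrays.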

How the results depend on the processing

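No member passed under any of the alternatives run. The count over all features, 3 as reported, was 1 over all features of the table and 1 to 21 when single arrays were left out, with the 1 reached without control replicate 1 and the 21, of which 16 were higher in knockout cochlea, without control replicate 3. The median difference of the members ranged from -0.34 to -0.20 and the precursor difference from -0.02 to 0.11 when single arrays were left out. The smallest adjusted p of a member lay between 0.0606, without control replicate 3, and 0.612. After median-centring the member median was -0.37, with 29 of 30 below 0.

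Changes of sign were few. Btk read 0.010 and Cr2 -0.088 after cyclic loess, Cr2 -0.025 and Cxcr5 -0.030 after median-centring, and Bcl11a 0.011 as the mean of its features. When single arrays were left out Btk ranged from -0.165 to 0.020, turning without control replicate 4, Cr2 from -0.084 to 0.177, turning without control replicate 2, and Fcer2a from -0.113 to 0.065, turning without control replicate 3. The cause was not tested. With the replicate number as a block, 3 features were called, 1 of them higher, and 0 of 30 members, whose smallest adjusted p was 0.264. Deviations of same-numbered arrays correlated at 0.057, 0.212, 0.215 and -0.289, so the numbers were not taken to pair the animals.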

Other observations

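Immunoglobulin and plasma cell genes did not form a common pattern. Ighm, the heavy chain of IgM, was read by 7 features linked to it alone. The brightest gave 9.91, 10.23, 10.04 and 10.01 in the knockout arrays and 10.47, 10.48, 10.33 and 10.56 in the control arrays, with no overlap and a difference of -0.41 (SE 0.11; limma adjusted p = 0.291). The other 6 features differed by -0.28 to 0.00016. Of 12 listed immunoglobulin and plasma cell genes 7 were measured, and 0 passed. Tnfrsf17, a plasma cell receptor with a dim feature at percentile 21.2, was at 0.51 (limma adjusted p = 0.322), and Sdc1, the plasma cell marker syndecan, at -0.17.

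Plasmacytoid dendritic cells share Spib and Tcf4 with the B lineage. In their list 0 of 7 genes passed and 5 of 7 were below 0 (median -0.03), beside 47.6% of all features below 0. Tcf4 was at -0.25 with no overlap between groups, beside 2.65% of all features, and Ccr9 at 0.36 with every knockout array higher, beside 3.3%. Cox6a2 was at -0.34, lowest in knockout replicate 1 (5.78) and highest in control replicate 2 (8.09). These were also the lowest and highest arrays of the skeletal muscle list (5.49 and 8.67). The part of muscle content in Cox6a2 was not tested.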
